A study of Homo sapiens with 4 samples.

Results

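Described here are the genes of the MHC class II antigen presentation route: CIITA, CD74 and the 8 HLA genes HLA-DRA, HLA-DRB1, HLA-DPA1, HLA-DPB1, HLA-DQA1, HLA-DQB1, HLA-DMA and HLA-DMB. These 10 genes, of 19775 with a probe set of their own, were taken by name from the array's gene annotation. The list was chosen with earlier results of these data known. They hold 26 probe sets annotated to a single member, and 6 further probe sets are annotated to a member together with other HLA genes. The samples were U937 cells, an established human line of monocytic character from a histiocytic lymphoma. One population carried a lentiviral pSICO-R vector with a single short hairpin against PIR, the gene of the nuclear iron-binding protein pirin, and the control carried the same vector without a hairpin. The series text reports that a Western blot detected no remaining pirin protein in the knock-down line. Both were kept under the same culture conditions, and whether either line was clonal is not stated in the labels. RNA from 3 extractions was mixed into 1 pool per condition, and each pool was hybridised to 2 HG-U133 Plus 2.0 arrays, giving 4 arrays in all. Arrays of 1 pool differ by hybridisation and not by culture, so SDs below (n = 2 arrays) measure hybridisation error, the comparison is between 2 pools, and no p-value can be given for the condition.

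MHC class II molecules are heterodimers of an alpha and a beta chain that present peptides from endosomes to CD4 T cells. HLA-DR, HLA-DP and HLA-DQ are the presenting molecules, CD74 (the invariant chain) escorts them to the endosome, and HLA-DM exchanges the last fragment of CD74 for peptide. Their promoters carry a conserved X box, bound by the RFX complex and CREB, and a Y box, bound by NF-Y. CIITA, which does not bind DNA itself, docks on these factors and switches the set on; interferon gamma induces CIITA, and professional antigen-presenting cells express it constitutively.

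The promoter module of class II genes is shown first as background, since the members were taken by name and not by their promoters. RefSeq promoter windows (build GRCh38.p14, 250 bases before to 50 bases after an annotated start) were found for 8 of the 10 members, with 2 windows for HLA-DPA1; CIITA and HLA-DRA had no entry. Each window was searched on both strands for an X box core, AGNNACNGA, and a Y box core, ATTGG, overlaps between matches being allowed. In the stretches below, written 5′ to 3′ on the gene's strand, capitals mark these matches.
HLA-DRB1 (chr6:32589880-32589937, minus strand): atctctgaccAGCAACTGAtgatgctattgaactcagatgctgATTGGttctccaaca
HLA-DQA1 (chr6:32637294-32637352, plus strand): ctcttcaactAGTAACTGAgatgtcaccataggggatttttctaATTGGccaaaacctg
HLA-DQB1 (chr6:32666731-32666788, minus strand): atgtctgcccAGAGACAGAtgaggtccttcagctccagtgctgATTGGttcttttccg
HLA-DMA (chr6:32953162-32953220, minus strand): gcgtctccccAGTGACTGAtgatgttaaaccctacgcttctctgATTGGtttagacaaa
HLA-DMB (chr6:32941068-32941126, minus strand): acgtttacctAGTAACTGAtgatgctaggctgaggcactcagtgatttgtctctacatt
HLA-DPA1 (chr6:33073700-33073758, minus strand): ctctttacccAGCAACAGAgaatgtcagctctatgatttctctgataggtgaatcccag
HLA-DPB1 (chr6:33075847-33075905, plus strand): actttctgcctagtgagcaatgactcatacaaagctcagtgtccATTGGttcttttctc
CD74 (chr5:150412949-150413007, minus strand): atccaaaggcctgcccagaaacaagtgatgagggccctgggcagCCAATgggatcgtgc

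The first 4 windows held an X core followed on the same strand by a Y core, with 24 or 25 bases between them. An X core and a Y core in this order, 10 to 40 bases apart, occurred in 137 of 35116 promoter windows (0.390%), an X core occurred in 15.3%, and a Y core in 34.6%. HLA-DMB and 1 HLA-DPA1 window held the X core without a Y core at that spacing, and HLA-DPB1 and CD74 held a Y core and no X core, the CD74 match printed here being on the opposite strand. The second HLA-DPA1 window held neither. These are letters of the reference genome and not of the U937 alleles. A match describes letters and not a bound site.

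**Figure D1:**
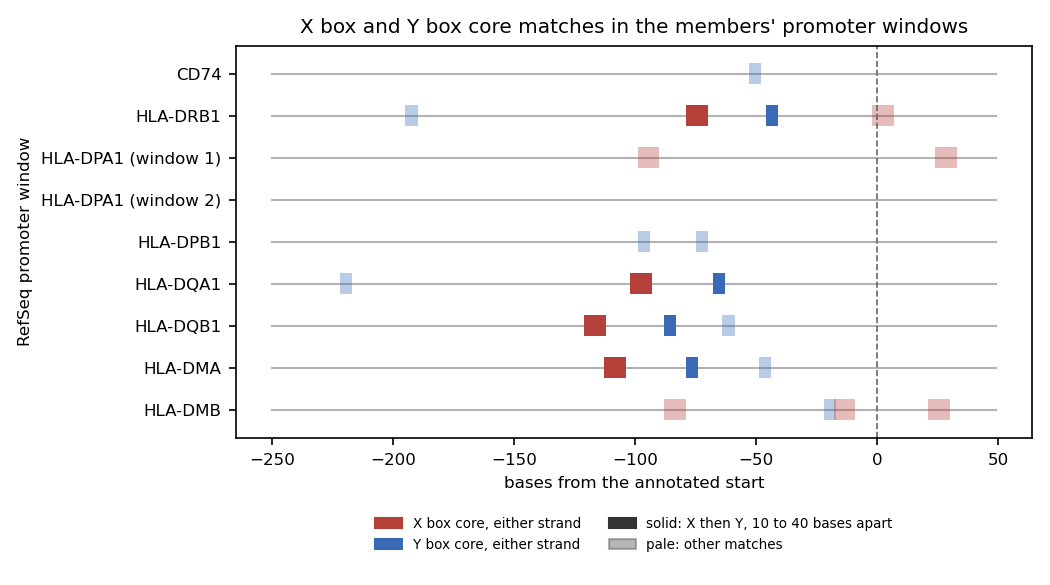
Matches to the X box core (red) and Y box core (blue) on either strand in 9 RefSeq promoter windows of 8 members, by distance in bases from the annotated start. Solid blocks mark an X core followed by a Y core 10 to 40 bases away, found in HLA-DRB1, HLA-DQA1, HLA-DQB1 and HLA-DMA; pale blocks are other matches.

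Signals are intensities on a linear scale that were brought to the same trimmed mean on each array. Differences are knock-down minus empty vector on the scale of log2(signal + 18), which understates changes of dim genes. A gene stands by its brightest probe set and is called measured if its signal reached the 60th percentile (116.4 to 125.5, depending on the array) on each array of 1 pool or the other. The size rule asked for a pool difference of 1 or more (2-fold), for 0.5 or more in the same direction in each of the 4 pairings of a knock-down with a control array, and for the brighter pool to reach the brightness limit on each array. PIR itself, on 207469_s_at, read 83.4 and 91.5 in the knock-down pool against 1812.9 and 1881.7 in the empty-vector pool, a difference of -4.15. The 3′ to 5′ ratio of the control probe sets was 0.959 to 1.02 for GAPDH and 1.17 to 1.18 for ACTB over the 4 arrays, and median signals were 62.5 and 68.5 in the knock-down pool and 70.8 and 72.1 in the control pool. Monocytic identity was checked on 12 markers: 9 were measured, LYZ, ELANE and CEBPA among the brightest, whereas CD14, FCGR1A and MPO lay below the limit.

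Among the class II genes with a measurable signal, 7 of 8 had a positive difference, as did 55.2% of all measured genes (with each array scaled to a common median, 7 of 8 and 7098 of 10287). HLA-DQB1, among the 7, reached the brightness limit in the knock-down pool only (138.6 and 157.4 against 104.2 and 175.0). The members were also chosen with earlier results of these data known. For both reasons the counts over the 8 and their median below are descriptions, and the shares of all measured genes beside them are no test. Of the 8 measured members, HLA-DPA1 and HLA-DRB1 were higher by at least 2-fold and none was lower, that is 2 of 8 where 2.44% of all 10288 measured genes were higher and 1.10% lower by this rule. At a limit of 1.5-fold, 4 of 8 were higher (HLA-DPA1, HLA-DRB1, HLA-DMA and HLA-DRA), against 6.98% of measured genes higher and 3.80% lower. Both knock-down arrays lay above both empty-vector arrays for 6 of the 8, against 40.9% of measured genes. The median difference of the 8 was 0.63 (1.55-fold), and that of all measured genes was 0.05. With each array scaled to a common median, the median of all measured genes became 0.17 and that of the members 0.75, and the counts over all genes became 340 higher and 76 lower in place of 251 and 113. Of the 26 probe sets, 10 were measured and 3 of these met the size rule, where 2.29% of 21933 measured probe sets were higher by it. One of the 3, 211991_s_at of HLA-DPA1, reached the brightness limit in the knock-down pool only, so this count is a description; with the limit at the 75th percentile it was 2. The other 16 probe sets were below the limit, so these counts describe the measured members and not all 10. The cells were analysed in bulk, so a change in the share of expressing cells and a change in RNA per cell cannot be told apart.

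**Figure D2:**
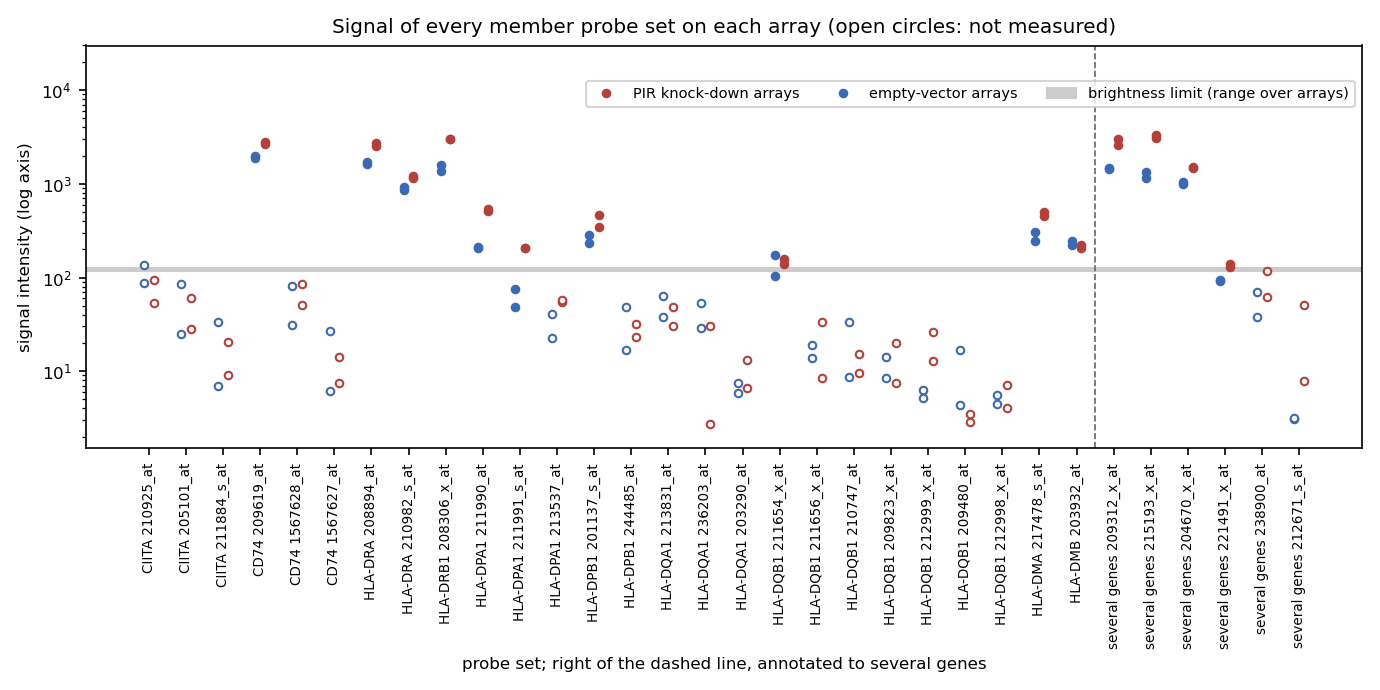
Signal intensity (log axis) of the 32 member probe sets on each of the 4 arrays: red, PIR knock-down; blue, empty vector; open circles, probe sets that were not measured; grey band, the brightness limit of 116.4 to 125.5. The probe sets right of the dashed line are annotated to several HLA genes; all 3 CIITA and all 3 HLA-DQA1 probe sets lie at or below the band in at least 1 array of each pool.

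CIITA, the master coactivator, was not measured on any of its 3 probe sets. The brightest, 210925_at, read 53.4 and 94.2 in the knock-down pool against 135.4 and 86.9 in the empty-vector pool. The pools overlapped, and the difference was -0.50 (array-by-array -1.10 to 0.10). Probe set 205101_at read 60.7 and 28.2 against 86.2 and 24.7, and 211884_s_at read 20.4 and 9.1 against 6.9 and 33.6. The arrays of the same pool thus differed as much as the pools did, and over all CIITA probe sets the signals spanned the 10.8th to the 61.1st percentile of their array. No higher CIITA signal was detectable in the knock-down pool at this brightness, and the data do not bound a change in a transcript this dim.

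Of the presenting alpha chains, HLA-DPA1 differed most. Its brightest probe set, 211990_at, read 542.6 and 517.3 in the knock-down pool and 207.4 and 213.9 in the empty-vector pool, a difference of 1.26 (2.40-fold; array-by-array 1.21 to 1.31). The pools were well separated, and 1.18% of measured genes had a larger difference. The second, 211991_s_at, gave 208.2 and 204.5 against 75 and 48.5, a difference of 1.51 that also met the size rule, although its empty-vector signals lay below the brightness limit. The remaining probe set, 213537_at, was dim and read 55.2 and 57.3 against 22.4 and 41.1, in the same direction (0.60).

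HLA-DRA, the invariant partner of all HLA-DR beta chains, had signals of 2551.6 and 2729.7 on 208894_at in the knock-down pool and 1698.0 and 1633.8 in the control. The pools did not overlap, and the difference was 0.66 (1.58-fold; 0.58 to 0.73). Its second probe set, 210982_s_at, read 1218.3 and 1161.6 against 855.0 and 918.4, a smaller difference of 0.42. Both fell short of 2-fold. HLA-DQA1, the alpha chain of HLA-DQ, was not measured on any of its 3 probe sets, whose signals ran from 2.7 to 63.0 over the 4 arrays. Its brightest read 48.9 and 30.2 against 63.0 and 37.6, with overlapping pools and a difference of -0.24.

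Of the beta chains, HLA-DRB1 met the size rule on its only probe set of 1 annotated gene, 208306_x_at. Its signals were 2993.2 and 3023.2 in the knock-down pool and 1372.3 and 1601.1 in the empty-vector pool, a difference of 1.01 (2.02-fold; 0.90 to 1.13). The pools did not overlap, but the value sits at the 2-fold limit: without the first empty-vector array it was 0.90, and after quantile normalization it was 0.997, so the call was lost in both. The suffix of this probe set marks probes that also match related transcripts, so the signal cannot be assigned to HLA-DRB1 alone.

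The 6 probe sets annotated to several HLA genes gave a spread of values. Probe set 215193_x_at, annotated to HLA-DQB1, HLA-DRB1, HLA-DRB3 and HLA-DRB4, read 3344.0 and 3121.4 in the knock-down pool against 1149.4 and 1326.1, a difference of 1.38 that met the size rule. Probe set 209312_x_at, annotated to HLA-DQB1, HLA-DRB1, HLA-DRB4 and HLA-DRB5, read 2987.7 and 2624.1 against 1452.9 and 1464.4 (0.93). Probe set 204670_x_at, annotated to HLA-DRB1 and HLA-DRB4, read 1482.0 and 1504.8 against 1055.9 and 1002.9 (0.53). The 4 measured shared probe sets, with 221491_x_at at 0.45, all had both knock-down arrays above both empty-vector arrays. This count is a description, since 221491_x_at reached the brightness limit in the knock-down pool only (128.9 and 138.5 against 91.7 and 94.1). The sizes differed by more than the array-by-array ranges of each probe set: 1.22 to 1.53 for 215193_x_at against 0.48 to 0.58 for 204670_x_at. The remaining 2, 238900_at and 212671_s_at, were not measured. The 3 probe sets annotated to HLA-DRB4 alone were dim, with mean signals up to 20.7 in the knock-down pool, and HLA-DRB6, a DRB pseudogene, gave 285.6 ± 67.2 against 258.5 ± 23.0 (0.12) on its brighter probe set.

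HLA-DPB1, the partner of HLA-DPA1, had signals of 345.6 and 467.9 on 201137_s_at in the knock-down pool and 233.2 and 286.9 in the control. The pools did not overlap, but the spread was wide: the difference of 0.60 (1.52-fold) had array-by-array values from 0.25 to 0.95. This range lies below that of HLA-DPA1. HLA-DQB1 had 7 probe sets, of which 211654_x_at alone was measured, at 138.6 and 157.4 against 104.2 and 175.0, with overlapping pools and a difference of 0.11 (-0.30 to 0.52). This probe set has the same suffix as that of HLA-DRB1, so its signal cannot be assigned to HLA-DQB1 alone. Without the first empty-vector array its difference was -0.22. Over the 10 HLA-DQA1 and HLA-DQB1 probe sets the median signal was 13.6, so HLA-DQ differences were not detectable at this brightness. The HLA-DQA1 and HLA-DQB1 windows printed above held an X and a Y core 25 and 24 bases apart, as the HLA-DRB1 window did with 24. Which HLA alleles the DQ probes match was not tested.

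CD74, the invariant chain, had one of the tighter differences. On 209619_at its signals were 2786.3 and 2686.9 in the knock-down pool and 1971.1 and 1907.1 in the control, with no overlap between pools. The difference of 0.49 (1.41-fold) varied little between arrays (0.44 to 0.54), and 12.2% of measured genes had a larger one. The other CD74 probe sets, 1567628_at and 1567627_at, were not measured and had overlapping pools.

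The chains of the peptide exchanger HLA-DM differed from each other. HLA-DMA had signals of 457.0 and 499.4 on 217478_s_at in the knock-down pool and 242.6 and 304.3 in the control, a difference of 0.77 (1.71-fold; 0.56 to 0.99) with no overlap. HLA-DMB, on 203932_at, read 219.7 and 205.7 against 223.5 and 242.5, a difference of -0.12 (-0.22 to -0.02) in which both knock-down arrays lay below both control arrays. The array-by-array ranges of the 2 genes did not overlap. HLA-DMB was the only one of the 8 measured members with a negative difference, and with median scaling it was at -0.004 while HLA-DMA was at 0.90. Of the windows above, that of HLA-DMA held both cores 25 bases apart and that of HLA-DMB an X core with no Y core at the spacing searched. The printed window of HLA-DPA1, the member with the largest difference, also held an X core and no Y core. A link between cores and differences was not tested.

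Ordered by size, the differences ran from HLA-DPA1 through HLA-DRB1, HLA-DMA, HLA-DRA, HLA-DPB1, CD74 and HLA-DQB1 to HLA-DMB. The array-by-array ranges of HLA-DPA1 and HLA-DRB1 did not overlap. From HLA-DRB1 down to HLA-DMB each gene's range overlapped that of the next, so the order of direct neighbours there is not resolved by these arrays. Genes further apart were separated: the range of HLA-DRB1 lay above that of HLA-DRA, those of HLA-DRA and HLA-DMA lay above that of CD74, and that of HLA-DMB lay below those of HLA-DRB1, HLA-DMA, HLA-DRA, HLA-DPB1 and CD74.

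**Figure D3:**
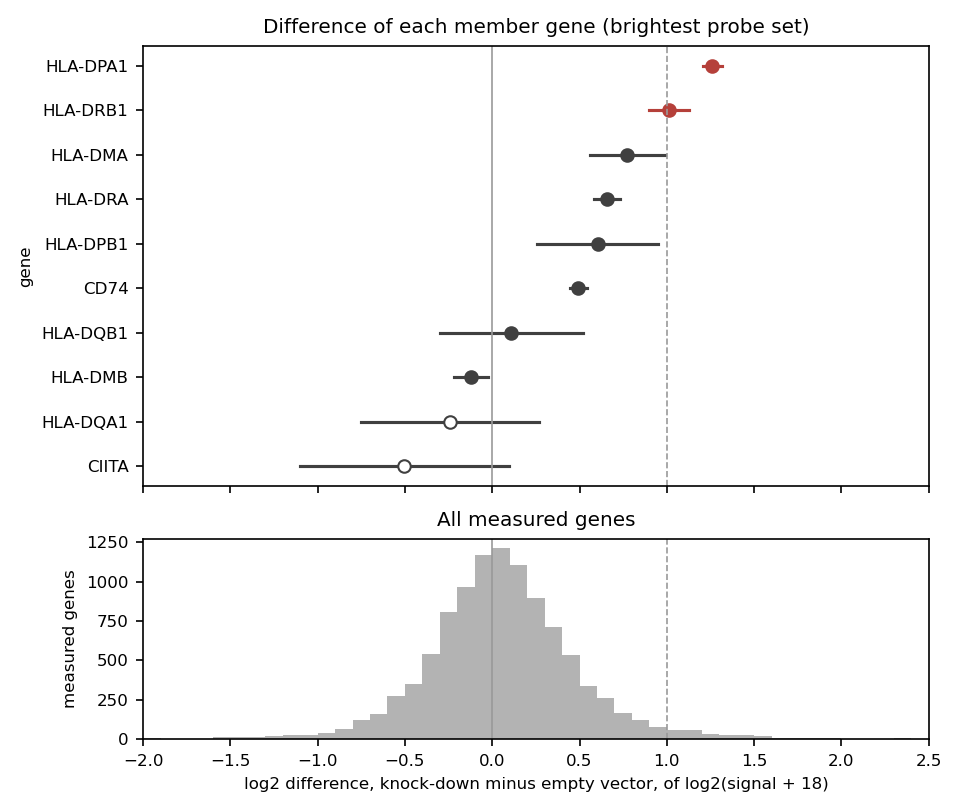
Upper panel: log2 difference, knock-down minus empty vector, of each of the 10 genes on its brightest probe set; lines span the 4 array-by-array differences, red marks genes that met the 2-fold size rule, open circles genes that were not measured. Lower panel: the same difference over 10288 measured genes, centred near 0 (median 0.05), with the dashed line at 1; HLA-DPA1 at 1.26 and HLA-DRB1 at 1.01 lie in its upper tail.

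The factors that bind the X and Y boxes did not move together. Of 7 measured enhanceosome genes, none met the size rule, 4 had positive and 3 negative differences, and the median was 0.04. RFX5, the large subunit of the RFX complex, had 3259 ± 292 against 2574 ± 162 (0.34), with 0.63 on its second probe set. RFXAP, another RFX subunit, had 962.5 ± 117 against 1284 ± 13.6 (-0.41), and its second probe set gave -0.42. NFYA, the regulatory subunit of NF-Y, had 2656 ± 132 against 4135 ± 268 (-0.63), was lower by the 1.5-fold rule, and gave -0.27 to -0.55 on its other 4 measured probe sets; NFYC, a histone-fold subunit, gave 0.34. With median scaling NFYA was at -0.51 and no longer met the 1.5-fold rule.

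Of the 11 measured genes that induce or restrain CIITA, none met the 2-fold rule and the median was 0.16. Differences were positive for 7, beside 55.2% of all measured genes, and negative for 4. These 4 were IRF8 (-0.24), PRDM1 (-0.20), SPI1 (-0.13) and HDAC2 (-0.10). IRF2, an interferon regulatory factor, had the largest difference, 642.3 ± 38.5 against 327.7 ± 40.3 (0.94; 0.76 to 1.12), and it was higher by the 1.5-fold rule. It passed 2-fold with median scaling (1.06) and without the first empty-vector array. The interferon gamma pathway genes JAK2, IRF1 and IFNGR2 gave 0.64, 0.49 and 0.43, and JAK1 and IFNGR1 of the same pathway 0.23 and 0.16. JAK2 was past 1.5-fold in its pool means (1.56-fold) but did not reach the required 0.5 in every pairing of arrays (0.38 to 0.90). Thus JAK2, IRF1 and IFNGR2 met neither rule on their brightest probe sets. The dimmer IRF1 probe set, 238725_at, gave 0.69 (0.61 to 0.76) and met the 1.5-fold rule. Of the other class II chains, HLA-DOB, a chain of the HLA-DM inhibitor HLA-DO, gave -0.32 from signals near the limit (121.8 ± 22.8 against 155.7 ± 22.0), and its partner HLA-DOA was not measured on any of 5 probe sets.

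Of 8 measured genes of the endosomal step, 7 had positive differences, beside 55.2% of all measured genes, and the median was 0.40 (1.32-fold). CTSS, the cathepsin that trims CD74 in antigen-presenting cells, was the single gene of the 7 pathway lists to meet the 2-fold rule on its brightest probe set, at 2750 ± 353 against 1203 ± 30.1 (1.18; 1.02 to 1.33). Its other 2 probe sets gave 0.78 each, under 2-fold. CST3, the cathepsin inhibitor cystatin C, was higher by the 1.5-fold rule (9414 ± 221 against 5583 ± 178, 0.75). Its dimmer probe sets gave 0.80 and 1.43, and the latter, 237623_at, met the 2-fold rule (352.4 and 407.3 against 134.1 and 124.7). Both dimmer CST3 probe sets reached the brightness limit on each array of the knock-down pool only, so these values are descriptions. CTSH and CTSB, lysosomal cathepsins, gave 0.47 and 0.44. CTSB probe sets ranged from -0.11 to 0.82.

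Trafficking and turnover genes had a median of -0.02 over 9 measured, which became 0.11 with median scaling. AP1S2, a clathrin adaptor subunit, was lower by the 1.5-fold rule (3287 ± 72.4 against 5178 ± 104, -0.65), but its other probe sets gave -1.37, which met the 2-fold rule, -0.60 and 0.13. With median scaling the first was at -0.53 and no longer met the 1.5-fold rule. MARCHF8, a ubiquitin ligase of surface proteins, gave 0.58, RILP, a late endosome effector, 0.40, and the tetraspanin CD9 -0.25. A dimmer MARCHF8 probe set, 231933_at, gave 0.08 with overlapping pools. MARCHF1, the ligase best known for removing class II from the surface, was not measured.

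Of 6 measured costimulation and checkpoint ligands, ICAM1, an adhesion ligand of T cells, gave 0.75 (1116 ± 72.3 against 654.4 ± 49) and LGALS9, a galectin, 0.66 (2973 ± 20.4 against 1876 ± 18), both higher by the 1.5-fold rule. The dimmer ICAM1 probe sets gave 0.73 and 0.22, the latter under 1.5-fold. TNFSF9 gave 0.51 and CD40 -0.33, and CD80 and CD86, the classical ligands of CD28, were not measured. All 6 measured class I and NLRC5 genes had positive differences, beside 55.2% of all measured genes, with a median of 0.40 (1.32-fold). On the brightest probe sets none met the 1.5-fold rule as deposited, and 2 did with median scaling, HLA-C at 0.63 and HLA-E at 0.62. Dimmer probe sets of HLA-E (200904_at, 0.65) and HLA-C (211799_x_at, 0.60) met it as deposited. HLA-C, HLA-E and HLA-B led with 0.51, 0.49 and 0.46, and NLRC5, the class I counterpart of CIITA, gave 0.34 (385.1 ± 22.4 against 302.4 ± 59.3).

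**Figure D4:**
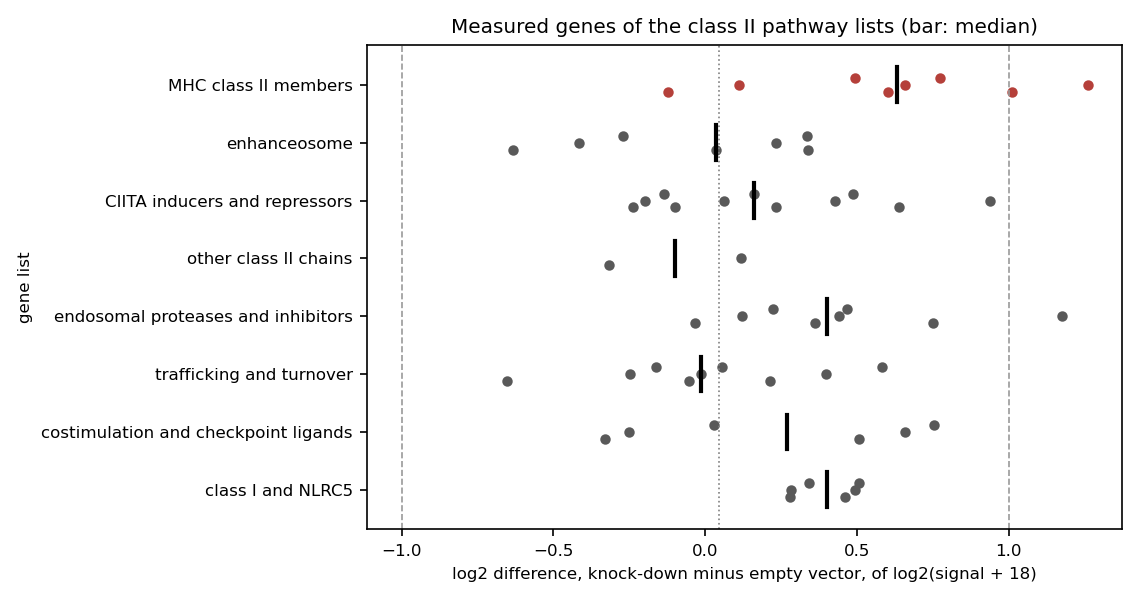
Log2 difference, knock-down minus empty vector, of the measured members (red) and of the measured genes of 7 pathway lists (grey); bars are medians, the dotted line is the median of all measured genes (0.05) and dashed lines mark 2-fold. The members' median is 0.63, the endosomal and class I lists stand at 0.40, and the enhanceosome list at 0.04.

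Markers of other antigen-presenting cells were examined beside these values. Of 6 B cell markers, 3 were measured and none met the size rule. The summed signal of all 6 was 860.6 to 997.6 in the knock-down pool and 839.1 to 1206.8 in the control. MS4A1, the CD20 gene, had mean signals of 27.5 and 17.6. Of 7 dendritic cell markers, 2 were measured. The summed signals of all 7, 1149 against 1204 to 1352, were mostly CD83, which gave 0.01. CD1C was lower by the size rule (59.4 ± 58.5 against 180.9 ± 29.9), and its knock-down arrays differed widely. Of 7 T and NK cell markers, 2 were measured and none met the rule. The sums over all 7, 9589 to 9604 against 7264 to 7576, were mostly NKG7. The CD3 genes lay below the limit in both pools. Of the 9 measured monocytic markers, 1 met the rule, ITGAM, the CD11b chain (1.90), and ITGAX (0.90) and CD4 (0.84) were higher by the 1.5-fold rule. Others were not: LYZ gave 0.01 (-0.12 after quantile normalization), SPI1 -0.13 and FUT4 -0.39. Both knock-down arrays of FUT4 lay below both controls on this probe set, 209892_at, but above both on 209893_s_at (0.27). CSF1R gave 0.69, ELANE 0.41 and CEBPA 0.26. Of the 9, 7 had positive and 2 negative differences, beside 55.2% positive among all measured genes. The median of the 9 was 0.41. The summed signal of all 12 monocytic markers was 73510 to 78194 against 64665 to 66906, and most of it was LYZ and ELANE. None of these lists has a marker at exactly 0, and their part in the class II values was not tested.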

How the data were processed

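The deposited values are intensities, 1 for each probe set on each array. The submitters' processing notes name GCOS, without a version or settings. The mean of each array, trimmed by 2% at both ends, was 500.07, so the deposited intensities were scaled to a common level on a linear scale, with no centring and no direction. Of 54675 probe sets, 62 AFFX controls were left out; 41092 had 1 gene symbol, 1800 several and 11721 none in the platform annotation, and 41037 matched the RefSeq gene table. List genes without a probe set of 1 symbol were not analysed here.

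Differences were taken between pool means of log2(signal + 18), 18 being the mean 25th percentile of signal. No test was run, since each condition is a single RNA pool hybridised to 2 arrays; the number of arrays limits the precision. All 10 members were named with their probe sets, and of each list the genes past the size rule and up to 4 largest differences among measured genes; other genes, such as CEBPA, ITGAX, SPI1, FUT4, NKG7, MARCHF1 and HLA-DRB4, were named after their values were seen. The members and lists were chosen with earlier results of these data known. Promoters came from RefSeq (GRCh38.p14), and the motif spacing was chosen with the members' windows in view. Alternatives were other pseudocounts, brightness limits, scalings, size limits, no margin, other choices of probe set, and each array left out. Python 3.11.15, pandas 2.3.3, numpy 2.4.6 and matplotlib 3.10.9 were used.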

Additional observations from a re-analysis of the deposited data

How the results depend on the processing

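No detection call was used, so signal over background limits CIITA and HLA-DQ to the statement that they were dim. The number of members past the size rule (2) became 1 with a pseudocount 4 times larger, with quantile normalization and without _x_at and _s_at probe sets, HLA-DRB1 being lost each time, and 4 at 1.5-fold; with single arrays left out it was 1 to 2, the 1 without empty-vector replica 1, where HLA-DRB1 was lost too. HLA-DPA1 met the rule under each of the 15 alternatives. The count of 3 member probe sets became 5 at 1.5-fold and 4 with the probe sets of several genes also counted. It fell to 2 with a pseudocount 4 times larger, with quantile normalization and without empty-vector replica 1. The brightness limit at the 75th percentile also gave 2. The median of 0.63 became 0.77 with the brightness limit at the 75th percentile and ran from 0.56 to 0.76 with single arrays left out. The single pathway gene past the rule, CTSS, became 2 genes without a brightness limit and with median scaling, 7 at 1.5-fold, and 0 both with probe sets averaged and without _x_at and _s_at probe sets; with single arrays left out it was 1 to 2, IRF2 being added without empty-vector replica 1. Of 98 recomputed member differences 88 moved by less than the spread between arrays, 10 by more, and none of a gene past the rule changed sign. HLA-DPB1 fell from 0.60 to -0.09 where its dim probe set 244485_at had to stand for it, and CD74 to 0.19 with its 3 probe sets averaged. HLA-DQB1 went from 0.11 to -0.22 without empty-vector replica 1 and to -0.30 without _x_at and _s_at probe sets. The unmeasured HLA-DQA1 went from -0.24 to 0.03 without empty-vector replica 1. No paired analysis was possible because each result comes from no test: the replica number names only an array of 1 pool.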
